A study of Mus musculus with 16 samples.

Results

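Marker genes of Bergmann glia and astrocytes, the glial cells that surround the neurons of the cerebellum, were followed in mouse cerebellum with and without ATM, and with and without the NAD+ precursor nicotinamide riboside (NR). The 10 genes were *Gfap*, *Aqp4*, *Slc1a3*, *Slc1a2*, *Gdf10*, *Hopx*, *Aldh1l1*, *S100b*, *Sox9* and *Fabp7*, out of 16737 named genes measured. Members were all array probes whose accession belongs to one of these genes, which gave 13 probes: 1 for each of 7 genes and 2 each for *Gfap*, *Aqp4* and *Sox9*, called here the brighter and the dimmer probe. The *Gfap* probes carry the accessions of different transcripts of the gene, whereas both probes of *Aqp4* and both of *Sox9* carry the same one. Every one of the 13 probes was well above background on all 16 arrays, so none depended on the filter on dim probes.

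RNA came from the cerebellar cortex of 16 mice of the strain B6;129S4-Atmtm1Bal/J, aged 3.5 months and labelled male, and each mouse had its own 1-colour Agilent array. Atm homozygous mice (Atm-/-) and wild type (WT) littermates had, from the age of 6 weeks, drunk water (veh) or water with NR (3.5 mg per ml, or 12 mM) for 2 months. Each of the 4 groups, called WT veh, WT NR and, for the mutants, Atm-/- veh and Atm-/- NR, held 4 mice. The p-values of the differences rest on the spread between mice within groups, pooled over the 4 groups. The mutation was carried by all cells of the Atm-/- mice, not by glia alone. The comparisons ask which glial transcripts differ without ATM, and whether NR moves them in either genotype.

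Bergmann glia have their cell bodies beside the Purkinje cells and send radial fibres to the surface of the cerebellar cortex, where they wrap the synapses on Purkinje cell dendrites and clear glutamate from them. Other astrocytes lie in the granule cell layer and in the white matter. When the tissue is injured or inflamed, both kinds of cell become reactive and make more of the intermediate filament protein GFAP. In RNA of whole tissue, fewer cells of a type and less RNA per cell cannot be told apart.

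The WT mice shared 1 slide and the Atm-/- mice the other, so slide and genotype cannot be told apart. The NR comparisons are within a slide, but on both slides the vehicle arrays were in row 1 and the NR arrays in row 2. Slide row and NR cannot be told apart either. A probe for *Atm* had lower signal on every Atm-/- array (7.72 to 8.08 on the log2 scale) than on any WT array (8.52 to 9.03), while the groups overlapped at the other *Atm* probe. Cerebellar neurons were well represented, with *Pcp2* (Purkinje cells) at 17.84 to 18.44 and *Gabra6* (granule cells) at 14.85 to 15.60. On 4 arrays (mice 1 and 4 of WT NR, mouse 3 of Atm-/- veh and mouse 4 of Atm-/- NR), none of 6 probes for *Uty*, *Kdm5d* and *Eif2s3y*, which lie on the Y chromosome, was well above background and *Xist* was, against the label. Of all probes, 34945 to 37817 were well above background on the Atm-/- NR arrays and 39134 to 41905 on the Atm-/- veh arrays, without overlap.

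A pair of arrays stood apart in their marker genes. On Atm-/- veh 3, reactive astrocyte genes were high, and on WT veh 4, choroid plexus genes were very high and neuronal and Bergmann glial genes low. Both arrays are described below, and values without them are given beside the members whose differences they move most.

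*Gfap* encodes the filament protein of astrocytes and is the usual marker of their reactive state. At the brighter probe, log2 signal was 12.73, 12.62, 12.25 and 12.93 in WT veh, 12.19, 12.48, 12.00 and 12.67 in WT NR, 12.37, 12.65, 13.79 and 12.81 in Atm-/- veh, and 12.21, 12.23, 12.09 and 12.08 in Atm-/- NR. Every Atm-/- NR array was below every Atm-/- veh array, and the highest of all 16 arrays was Atm-/- veh 3. At the dimmer probe, the values were 11.41, 11.13, 10.43 and 11.19 in WT veh, 10.57, 10.72, 10.40 and 11.25 in WT NR, 11.49, 11.46, 12.50 and 11.13 in Atm-/- veh, and 10.53, 10.67, 10.71 and 10.45 in Atm-/- NR. The order of the group means was the same at both probes (Atm-/- veh, WT veh, WT NR, Atm-/- NR), with overlapping ranges between neighbours in that order, and the probes followed each other over the 16 arrays (r = 0.90, n = 16 arrays, across which the groups differ).

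*Gfap* was the only member with a called difference in any of the comparisons. In Atm-/- NR against Atm-/- veh, the dimmer probe fell by 1.06 on the log2 scale (2.08-fold, SE 0.27, 95% CI -1.64 to -0.47, limma adjusted p = 0.031), where 9.04% of all 37253 probes were called. The brighter probe was lower by 0.75 (log2 difference -0.75, SE 0.25, adjusted p = 0.073) and was not called. Without Atm-/- veh 3 the differences were -0.77 (limma adjusted p = 0.061) at the dimmer and -0.45 (adjusted p = 0.14) at the brighter probe, and without the 4 arrays that lack Y-linked signal they were -0.73 (adjusted p = 0.10) and -0.43 (adjusted p = 0.20). The call was also lost when Atm-/- veh 1 or any 1 of the 4 Atm-/- NR arrays was left out (adjusted p 0.057 to 0.070, difference -1.11 to -1.01). With each array's share of detected probes as a covariate, the difference was -1.55 with an adjusted p of 0.14, and 0 of all 37253 probes were called.

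The genotype difference of *Gfap* in vehicle mice did not pass the test at either probe. It was +0.61 (SE 0.27, unadjusted p = 0.044, limma adjusted p = 0.33) at the dimmer probe and +0.27 (SE 0.25, adjusted p = 0.64) at the brighter probe, with overlapping groups. Without Atm-/- veh 3 it was +0.32 (adjusted p = 0.57) and -0.02 (adjusted p = 0.97), so that at the brighter probe its sign rests on that array. In WT mice, NR went with values of -0.31 (dimmer, adjusted p = 0.85) and -0.30 (brighter, adjusted p = 0.84). Atm-/- NR against WT NR was -0.14 (dimmer) and -0.18 (brighter, adjusted p = 0.9997 for both). The NR effect in Atm-/- minus that in WT was -0.75 (SE 0.39, adjusted p = 0.84) at the dimmer probe, which does not show that NR acted differently in the genotypes.

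**Figure D1:**
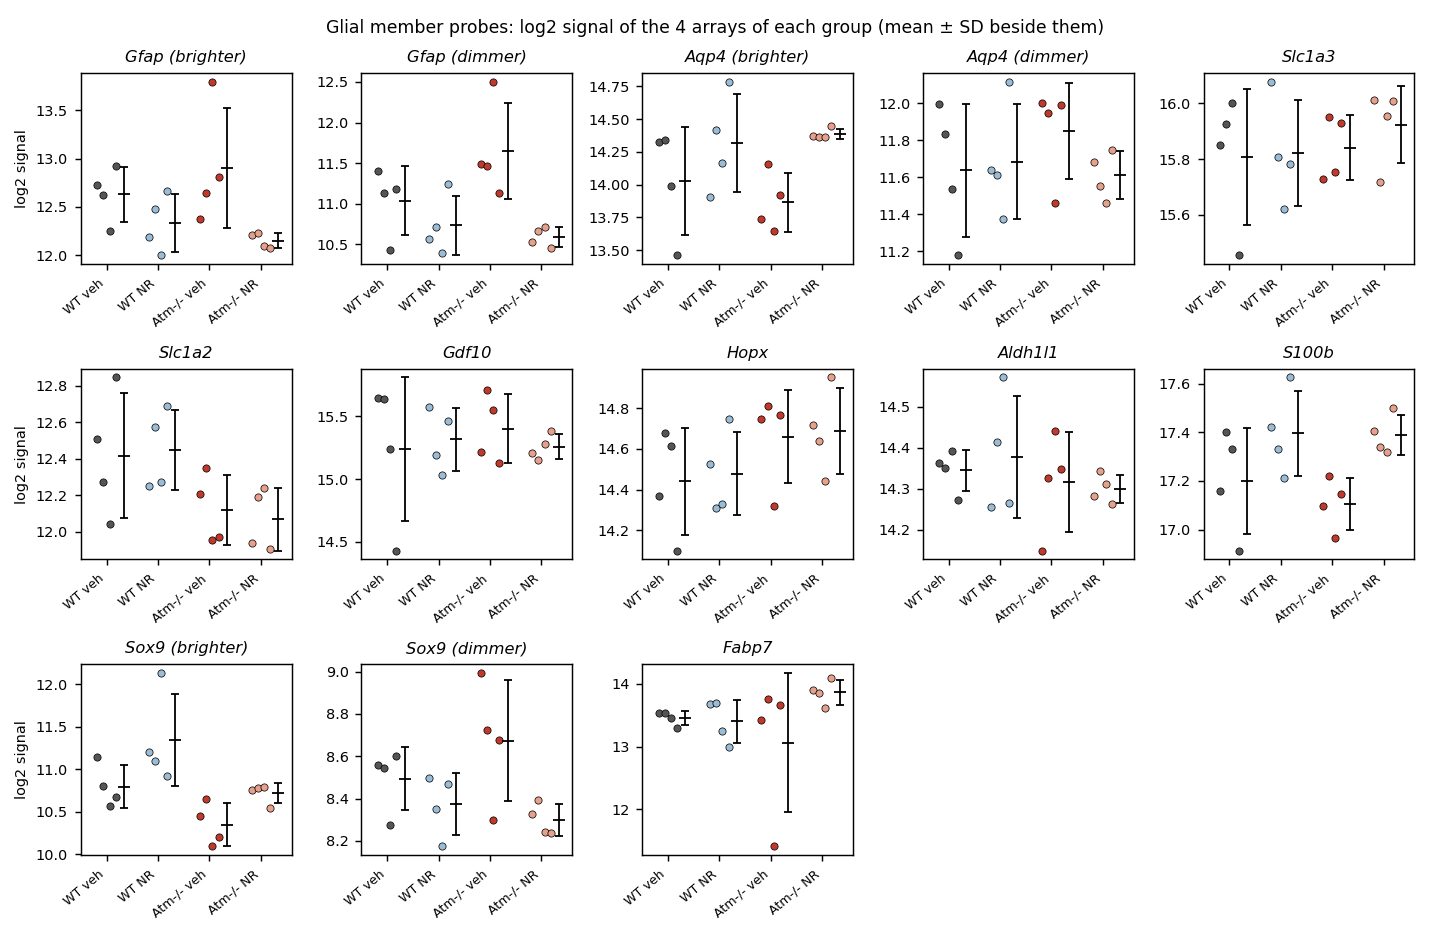
Log2 signal (y axis, own scale in each panel) of each of the 13 member probes on the 4 arrays of each group (x axis; points, replicates 1 to 4 from left to right), with the mean and SD beside them. For both *Gfap* probes all Atm-/- NR points lie below all Atm-/- veh points, and the Atm-/- veh replicate 3 point is high for *Gfap* (13.79 at the brighter probe) and low for *Fabp7* (11.41).

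*Fabp7* encodes the brain fatty acid binding protein of radial and Bergmann glia, which carries long-chain polyunsaturated fatty acids. Log2 signal was 13.53, 13.54, 13.46 and 13.29 in WT veh, 13.67, 13.69, 13.24 and 12.996 in WT NR, 13.42, 13.75, 11.41 and 13.67 in Atm-/- veh, and 13.89, 13.85, 13.61 and 14.09 in Atm-/- NR. Apart from Atm-/- veh 3, all arrays lay within 12.996 and 14.09, and every Atm-/- NR array was above every WT veh array. That pair of groups differs in genotype, slide and treatment and was not tested, and no share of all probes is given for it. Atm-/- NR against Atm-/- veh was +0.80 (SE 0.39, limma adjusted p = 0.20) and +0.25 (SE 0.17, adjusted p = 0.39) without Atm-/- veh 3. Atm-/- veh against WT veh was -0.39 (adjusted p = 0.67), and +0.16 (adjusted p = 0.72) without that array. Neither comparison passed the test, and the sign of the genotype difference rests on 1 mouse.

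The sequence just upstream of the transcription start was taken for the members from RefSeq promoters (build GRCm38.p6), which hold 9 promoters for 8 of the 10 genes. Each was searched on both strands of its 250 upstream bases for 4 motifs. The letters of the TATA box were TATAAA, those of the STAT motif TTCNNNGAA, those of the partial NFI motif TTGGC and those of the SOX motif ACAATG. Shown are *Gfap* and *Fabp7*, the members with the highest and the lowest value on Atm-/- veh 3 relative to the other arrays, and *S100b*, the promoter with the most matches, with matches in capitals.
Gfap, chr11:102897201-102897450, minus strand: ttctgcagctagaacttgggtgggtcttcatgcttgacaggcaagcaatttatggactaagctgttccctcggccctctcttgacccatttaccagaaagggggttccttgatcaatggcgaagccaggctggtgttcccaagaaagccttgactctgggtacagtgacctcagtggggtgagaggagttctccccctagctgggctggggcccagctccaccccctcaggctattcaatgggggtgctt
Fabp7, chr10:57784673-57784922, plus strand: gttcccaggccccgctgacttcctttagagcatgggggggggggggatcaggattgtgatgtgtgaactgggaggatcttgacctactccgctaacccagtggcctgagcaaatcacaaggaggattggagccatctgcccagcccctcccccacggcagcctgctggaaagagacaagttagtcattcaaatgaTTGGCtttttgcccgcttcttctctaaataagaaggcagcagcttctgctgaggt
S100b, chr10:76253586-76253835, plus strand: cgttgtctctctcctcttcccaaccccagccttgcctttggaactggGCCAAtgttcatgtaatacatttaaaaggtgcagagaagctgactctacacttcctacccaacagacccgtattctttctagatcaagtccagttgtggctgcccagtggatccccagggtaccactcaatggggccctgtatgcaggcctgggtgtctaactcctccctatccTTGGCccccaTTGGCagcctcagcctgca
The *Gfap* window holds no match to the 4 motifs. The *Fabp7* window holds the NFI motif 55 bases before the start, and that of *S100b* holds it 3 times. The NFI motif is found in 41.5% of the 32851 promoters of this length, the TATA box in 12.4%, the SOX motif in 10.7% and the STAT motif in 7.02%. The members' only STAT match and only TATA box lay before *Slc1a3*.

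*Aqp4* encodes aquaporin-4, the water channel of astrocyte endfeet. At the brighter probe, signal was 14.33, 14.34, 13.99 and 13.46 in WT veh, 13.91, 14.42, 14.16 and 14.79 in WT NR, 13.74, 14.16, 13.65 and 13.92 in Atm-/- veh, and 14.37, 14.36, 14.36 and 14.45 in Atm-/- NR. All Atm-/- NR arrays were above all Atm-/- veh arrays, by +0.52 on average (SE 0.20, unadjusted p = 0.023, limma adjusted p = 0.12). At the dimmer probe the difference had the other sign (-0.24, SE 0.19, adjusted p = 0.44) and the groups overlapped (11.46 to 12.00 in Atm-/- veh, 11.46 to 11.75 in Atm-/- NR). No direction can therefore be given for *Aqp4*. The other comparisons of both probes lay between -0.16 and +0.29, with adjusted p of 0.625 or more. Without WT veh 4, the lowest array at both probes, the brighter probe had -0.35 (limma adjusted p = 0.36) in Atm-/- veh against WT veh, where it had -0.16 with that array, and +0.10 (adjusted p = 0.89) in WT NR against WT veh, where it had +0.29.

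*S100b*, which encodes a calcium-binding protein of astrocytes and Bergmann glia, had the values 17.16, 17.40, 17.33 and 16.91 in WT veh, 17.42, 17.33, 17.21 and 17.63 in WT NR, 17.10, 17.22, 16.97 and 17.15 in Atm-/- veh, and 17.41, 17.34, 17.32 and 17.50 in Atm-/- NR. Atm-/- NR lay above Atm-/- veh without overlap, by +0.28 (SE 0.11, limma adjusted p = 0.12). With 75th-percentile scaling in place of quantile normalization this difference was +0.41 and passed the test (limma adjusted p = 0.035). In WT mice the NR difference was +0.20 (adjusted p = 0.73) with overlapping groups, and +0.10 (adjusted p = 0.78) without WT veh 4.

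Of the 13 probes, 4 had no overlap between Atm-/- NR and Atm-/- veh (both *Gfap* probes, the brighter *Aqp4* probe and *S100b*), against 20.2% of all probes. Unadjusted p was under 0.05 for 5 of the 13 probes, against 27.3% of all probes.

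*Sox9* encodes a transcription factor of astrocytes and Bergmann glia. The brighter probe had 11.14, 10.81, 10.57 and 10.67 in WT veh, 11.20, 11.10, 12.13 and 10.92 in WT NR, 10.46, 10.65, 10.09 and 10.20 in Atm-/- veh, and 10.76, 10.78, 10.80 and 10.54 in Atm-/- NR. WT NR 3 was the highest array by a wide margin, and every Atm-/- NR array was below every WT NR array. WT NR against WT veh was +0.54 (SE 0.22, unadjusted p = 0.028, limma adjusted p = 0.61), and Atm-/- NR against WT NR was -0.62 (SE 0.22, unadjusted p = 0.014, adjusted p = 0.85). Without WT NR 3 these were +0.28 (limma adjusted p = 0.87) and -0.36 (adjusted p = 0.85). The dimmer probe did not show either difference (-0.12 and -0.07) and went the other way from the brighter one in Atm-/- NR against Atm-/- veh, at -0.37 (SE 0.13, unadjusted p = 0.011, limma adjusted p = 0.080) against +0.37 (adjusted p = 0.30). Without Atm-/- veh 3 the dimmer probe's difference was -0.50 and passed the test (adjusted p = 0.026). The probes correlated at r = -0.34 over the 16 arrays, so the *Sox9* probes give no common direction.

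No difference of the glutamate transporters was called. *Slc1a3* (GLAST), the main glutamate transporter of Bergmann glia, lay at 15.81 ± 0.24 for WT veh, 15.82 ± 0.19 for WT NR, 15.84 ± 0.12 for Atm-/- veh, and 15.92 ± 0.14 for Atm-/- NR (mean ± SD of log2 signal, n = 4 arrays each). Its differences lay between +0.01 and +0.10, with 95% intervals from -0.26 to +0.37 over the 4 comparisons, so a change of 2-fold lay outside each. Without WT veh 4 the differences from WT veh were -0.08 (Atm-/- veh, limma adjusted p = 0.74) and -0.10 (WT NR, adjusted p = 0.79), so their signs rest on that array. *Slc1a2* (GLT-1), the transporter of other astrocytes, had 12.51, 12.27, 12.04 and 12.85 in WT veh, 12.25, 12.58, 12.28 and 12.69 in WT NR, 12.21, 12.35, 11.95 and 11.97 in Atm-/- veh, and 11.94, 12.19, 12.24 and 11.90 in Atm-/- NR. All Atm-/- NR arrays were below all WT NR arrays (-0.38, SE 0.16, unadjusted p = 0.037, limma adjusted p = 0.93), and Atm-/- veh against WT veh was -0.30 (SE 0.16, adjusted p = 0.42) with overlap. Without WT veh 4, the highest array, the latter was -0.15 (SE 0.15, limma adjusted p = 0.64). The NR differences of *Slc1a2* were -0.05 in Atm-/- and +0.03 in WT mice (adjusted p = 0.87 and 0.99), the latter +0.17 (adjusted p = 0.73) without WT veh 4.

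*Gdf10*, a secreted factor of the BMP family that marks Bergmann glia, had means of 15.24 ± 0.57 for WT veh, 15.32 ± 0.25 for WT NR, 15.40 ± 0.28 for Atm-/- veh, and 15.26 ± 0.10 for Atm-/- NR (SD, n = 4). The large SD of WT veh came from 1 array, WT veh 4, at 14.43, with the others between 15.24 and 15.65. Atm-/- veh against WT veh was +0.16 (SE 0.23, limma adjusted p = 0.78) with it and -0.11 (SE 0.17, adjusted p = 0.79) without it. *Hopx*, a homeodomain protein without DNA binding that is found in Bergmann glia, had means of 14.44 ± 0.26, 14.48 ± 0.20, 14.66 ± 0.23 and 14.69 ± 0.21 in the same order of groups. Its mean was higher in Atm-/- than in WT by 0.22 among vehicle mice (SE 0.16, limma adjusted p = 0.54) and by 0.21 among NR mice (adjusted p = 0.9997, with overlap in both). Among vehicle mice the difference was +0.11 (limma adjusted p = 0.77) without WT veh 4 and +0.33 (adjusted p = 0.40) without Atm-/- veh 3. *Aldh1l1*, the folate enzyme widely used to label astrocytes, was the steadiest member, with means of 14.35 ± 0.05, 14.38 ± 0.15, 14.32 ± 0.12 and 14.30 ± 0.03. Its group means differed by at most 0.08 and its 95% intervals over the 4 comparisons ran from -0.25 to +0.21.

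**Figure D2:**
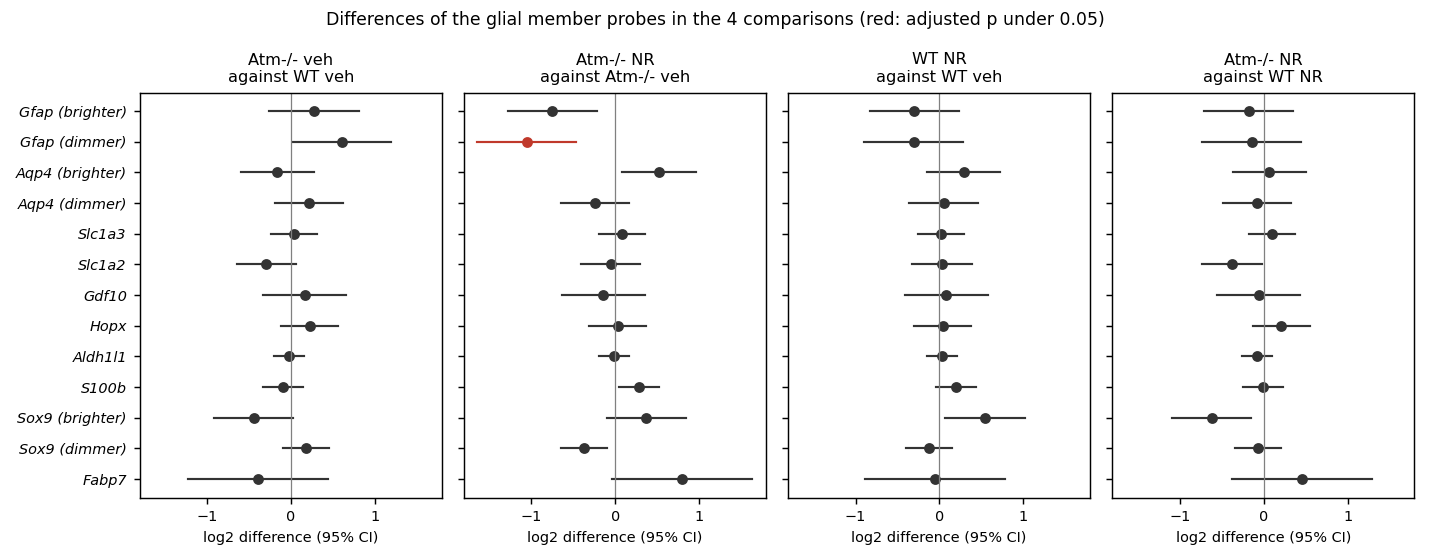
Log2 difference (x axis; points) with its 95% confidence interval (lines) for each of the 13 member probes (y axis) in the 4 comparisons between groups of 4 arrays, from the limma model over all 16 arrays. The dimmer *Gfap* probe in Atm-/- NR against Atm-/- veh, at -1.06, is the only one called (red), and the intervals of *Slc1a3* and *Aldh1l1* are narrow around 0.

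For the 13 probes together, the median difference was +0.03 in Atm-/- veh against WT veh (-0.00 over all probes), -0.02 in Atm-/- NR against Atm-/- veh (-0.00), +0.03 in WT NR against WT veh (-0.01) and -0.07 in Atm-/- NR against WT NR (+0.00). In Atm-/- veh against WT veh, 0 of the 13 were called and 1 had an unadjusted p under 0.05 (0.0537% and 14.6% of all probes), and none was without overlap (7.6% of all probes). In WT NR against WT veh, 0 were called and 1 had an unadjusted p under 0.05 (0% and 7.62% of all probes), again with none without overlap (4.09%). In Atm-/- NR against WT NR, 0 were called, 2 had an unadjusted p under 0.05 and 2 were without overlap (0.0537%, 5.21% and 4% of all probes). For the NR effect in Atm-/- minus that in WT, 0 were called and 0 had an unadjusted p under 0.05 (0% and 5.27% of all probes). The spread between mice of a group was smallest in Atm-/- NR for 10 of the 13 probes and largest in WT veh for 7. The same counts over all probes are not given, and *Gfap*, *Aqp4* and *Sox9* enter with both their probes.

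Single mice held much of the spread. The array Atm-/- veh 3 had the highest *Gfap* and the lowest *Fabp7* of all 16, and of the 33 measured genes of a reactive astrocyte list, 28 were higher there than on the other 3 Atm-/- veh arrays, 15 of them by more than 1 on the log2 scale. They included *Cxcl10* (a chemokine induced by interferon, 11.97 against 7.03 to 8.33 on the other 3 arrays), *Lcn2* (lipocalin-2, 10.89 against 6.81 to 8.15), *Timp1* (an inhibitor of matrix metalloproteases, 11.59 against 8.65 to 8.99) and *Fkbp5* (a target of the glucocorticoid receptor, 12.36 against 9.51 to 10.23). The genes named for this array and for WT veh 4, members aside, were picked with these values in view. For both arrays, the same counts over all genes are not given. The counts of list genes above or below the other 3 arrays therefore do not set a shift of a list apart from one of the whole array. The mean deviation of the list was +0.96 on this array and between -0.27 and +0.21 on the other 15. Of 11 microglial genes, 10 were higher there than on the other 3 arrays, among them *Cd68* (11.34 against 9.87 to 10.17), as were 6 of 8 endothelial genes. Of 19 Bergmann glia genes 11 were lower and 4 higher than on the other 3 arrays, with a median difference of -0.15, and of 40 astrocyte genes 17 were lower and 18 higher. *Fabp7* was lower by 2.20 than the mean of the other 3, *Etv4*, a transcription factor of Bergmann glia, by 1.16 and *Hopx* by 0.46. In the same Bergmann glia list, *Vim* was higher by 0.46 and *Wif1* by 1.26, the latter within the range of the other 3 arrays. This is one of the arrays without Y-linked signal, and the part of sex or of the state of this mouse in these values was not tested.

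The array WT veh 4 had the lowest value of all 16 for 5 of the 10 members, namely *Aqp4*, *Slc1a3*, *Gdf10*, *Hopx* and *S100b*, and the highest for *Slc1a2* (by their brighter or only probes). *Gdf10* was lower by 1.08 than the mean of the other 3 WT veh arrays. Choroid plexus genes were far higher there, with *Ttr* (transthyretin) at 18.05 against 8.33 to 12.33 and the list at +4.75, while it lay between -1.16 and +0.82 on the other 15 arrays. Of 12 granule cell genes 10 were lower than on the other 3 WT veh arrays, as were 8 of 11 Purkinje cell genes and 13 of 19 Bergmann glia genes, and all 11 microglial genes were higher. The part of the piece of tissue taken in the values of the members was not tested.

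**Figure D3:**
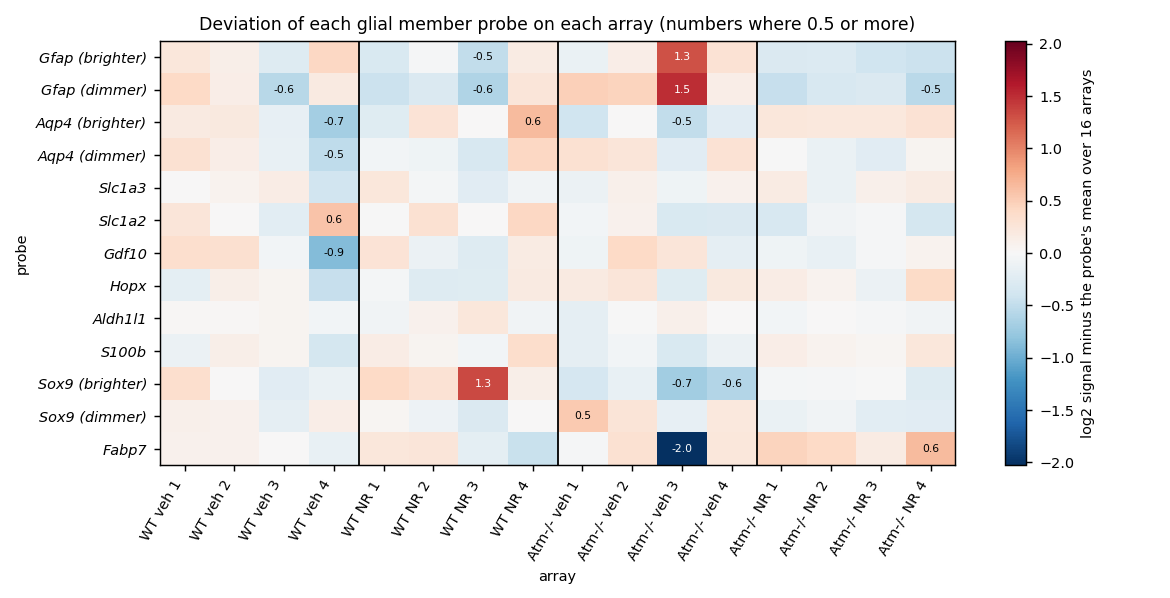
Log2 signal of each of the 13 member probes (rows) on each of the 16 arrays (columns, groups separated by lines) minus the probe's mean over all arrays (colour), with the number printed where it is 0.5 or more in size. Atm-/- veh 3 stands out with high *Gfap* and low *Fabp7*, and WT veh 4 with low *Gdf10* and *Aqp4*.

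Across the 16 arrays, 45 pairs of members were compared by their brighter or only probes, and r ranged from -0.79 to 0.83 with a median of 0.06, so the members did not rise and fall as 1 unit. Permutations ran over all 16 arrays regardless of group and slide, so the p-values do not set group differences apart from likeness within groups. By r, the pair *Aqp4* and *S100b* was the only one to pass after adjustment for the 45 pairs. Its r was 0.83 (permutation p = 9e-05, adjusted p = 0.0041) and its rho 0.73 (permutation p = 0.0018, adjusted p = 0.083), and r was 0.69 without the 2 arrays farthest from the median of *Aqp4* (WT veh 4 and Atm-/- veh 3), 0.75 within the WT slide, 0.96 within the Atm-/- slide and 0.72 after group means were removed. With the dimmer *Aqp4* probe, r was 0.36. *Gfap* and *Fabp7* had r = -0.79 (permutation p = 0.0069, adjusted p = 0.12; rho -0.43, permutation p = 0.094), which was -0.34 without Atm-/- veh 3 and -0.24 without the 2 farthest arrays, so that this relation rests on single arrays. *Slc1a3* and *Gdf10* had r = 0.65 (permutation p = 0.0081, adjusted p = 0.12; rho 0.45, permutation p = 0.085), and 0.16 without WT veh 4 and WT NR 3.

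Among 16727 other genes, those whose signal was most like that of *Gfap* over the 16 arrays were *Mustn1* (r = 0.92), *Cyba* (0.90), a subunit of the phagocyte NADPH oxidase, and *C1qa* (0.90), a complement gene of microglia. Without Atm-/- veh 3 these were 0.81, 0.73 and 0.80. For *Gdf10* they were *Nsmce4a* (0.94), *Lhfp* (0.93) and *Slc1a6* (0.89), the glutamate transporter of Purkinje cells. For *Hopx* they were *Ak4* (0.89), *Dapk2* (0.84) and *Coq10b* (0.83), for *Aqp4* *Lactb2* (0.93), *Golga7* (0.92) and *Neu3* (0.92), and for *Slc1a3* *Pde1c* (0.88), *En2* (0.87) and *Diras2* (0.86). WT veh 4 was the lowest array for *Gdf10*, *Hopx*, *Aqp4* and *Slc1a3*, and no r without it is given. *Gfap* and *Aqp4* entered by their brighter probes, and the *Aqp4* probes had r = 0.41 with each other. The arrays share groups, slides and pieces of tissue, and these likenesses are descriptions over 16 arrays with no test.

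The wider glial gene lists, with each gene represented by its brightest probe, were described by counts. In Atm-/- NR against Atm-/- veh, where 6.67% of the 16737 genes were called higher and 4.8% lower, 0 of 19 Bergmann glia genes were called (4 of them members), with a median difference of +0.02 (+0.04 over all genes). Of 40 astrocyte genes (8 members), 1 rose and 2 fell, with a median of -0.05. *Mt3*, a metallothionein of astrocytes that binds zinc, fell by 0.78 (SE 0.13, limma adjusted p = 0.0073), from 13.50 ± 0.19 to 12.72 ± 0.12 (SD, n = 4 arrays). *Ttyh1*, a membrane protein of the tweety family, fell by 0.40 (adjusted p = 0.025), and *Sparcl1*, a secreted matrix protein that promotes synapse formation, rose by 0.39 (adjusted p = 0.019), from 18.07 ± 0.18 to 18.46 ± 0.07. None of these groups overlapped. A second probe of *Ttyh1* was at -0.08 and was not called (adjusted p = 0.78).

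Of 33 reactive astrocyte genes (1 member), 1 was called: *Cd44*, the hyaluronan receptor, rose by 0.58 (limma adjusted p = 0.012), and its second probe was at -0.03. The median of this list was -0.24 with all arrays, -0.00 without Atm-/- veh 3 and +0.09 without the arrays that lack Y-linked signal. Of 11 microglial genes 0 were called, with a median of -0.32 and, without Atm-/- veh 3, -0.08. Among 20 glial transcription factors 1 was called: *Nfix*, of the nuclear factor I family, fell by 0.49 (adjusted p = 0.019), by 0.48 at another probe (adjusted p = 0.018) and was at -0.27 at a further one (adjusted p = 0.42).

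Among 17 measured enzymes of one-carbon and folate metabolism, to which *Aldh1l1* belongs, 2 rose and 2 fell. *Gldc*, the glycine decarboxylase of the mitochondrial glycine cleavage system, which is found in astrocytes, rose by 0.49 (limma adjusted p = 0.012) and *Mthfd1*, a cytosolic folate enzyme, by 0.39 (adjusted p = 0.012), although its second probe was at -0.17. *Mthfd1l*, its mitochondrial relative, fell by 0.45 (adjusted p = 0.047) and *Cbs*, cystathionine beta-synthase, by 0.49 (adjusted p = 0.049). In the lists of glutamate uptake and the glutamine cycle (19 genes), intermediate filaments (12) and the S100 and fatty acid binding protein families (13), 0 were called. Without Atm-/- veh 3, *Mt3*, *Sparcl1*, *Cd44*, *Nfix*, *Gldc* and *Mthfd1* passed the test, and *Ttyh1*, *Mthfd1l* and *Cbs* did not (adjusted p = 0.056, 0.092 and 0.11), although their differences of -0.38, -0.43 and -0.42 were close to those with all arrays. Without the arrays that lack Y-linked signal, none of these genes passed (adjusted p of 0.054 or more), and the calls over all probes went from 3366 to 438 with fewer arrays. The differences were then -0.73 for *Mt3*, +0.34 for *Sparcl1*, +0.55 for *Cd44*, -0.51 for *Nfix*, +0.44 for *Gldc* and +0.38 for *Mthfd1*.

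Some markers of other cells were called in Atm-/- NR against Atm-/- veh, where 6.67% of the 16737 genes were called higher and 4.8% lower. The counts were not tested against these shares. The median difference was -0.11 for the granule cell list and -0.05 for the Purkinje cell list (+0.04 over all genes). Of 12 granule cell genes 2 fell, *Slc17a7*, the vesicular glutamate transporter, by 0.54 (limma adjusted p = 0.026) and *Reln*, the secreted protein reelin, by 0.52 (adjusted p = 0.034). Of 11 Purkinje cell genes 1 rose, *Car8*, a carbonic anhydrase relative without enzyme activity, by 1.10 (adjusted p = 0.042). A second probe of *Car8* was also called higher (adjusted p = 0.014), and that of *Reln* was not called (-0.34, adjusted p = 0.27). Without Atm-/- veh 3, *Slc17a7* passed the test (limma adjusted p = 0.022), and *Reln* and *Car8* did not (adjusted p = 0.082 and 0.10). Without the arrays that lack Y-linked signal, *Slc17a7* passed (adjusted p = 0.042), and *Reln* and *Car8* did not (adjusted p = 0.10 and 0.19). Of 7 ependymal genes 0 were called, with a median of +0.93. The mean deviation of this list lay between 0.31 and 0.76 on the Atm-/- NR arrays and between -1.82 and 0.34 on the Atm-/- veh arrays. It also varied widely among WT mice, from -1.45 to 1.07 in WT veh and from -1.68 to 0.84 in WT NR. The part of these cells in the glial values was not tested.

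In the other 3 comparisons between groups 0 genes of these glial lists were called. The lowest unadjusted p among astrocyte genes in Atm-/- veh against WT veh belonged to *Sparcl1* (-0.32, unadjusted p = 0.0022, limma adjusted p = 0.19) and *Mt3* (+0.41, unadjusted p = 0.0068, adjusted p = 0.22). Their differences there and in Atm-/- NR against Atm-/- veh share the Atm-/- veh arrays and have opposite signs. The NR effect in Atm-/- minus that in WT was +0.32 for *Sparcl1* and -0.47 for *Mt3* (adjusted p = 0.84 for both).

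**Figure D4:**
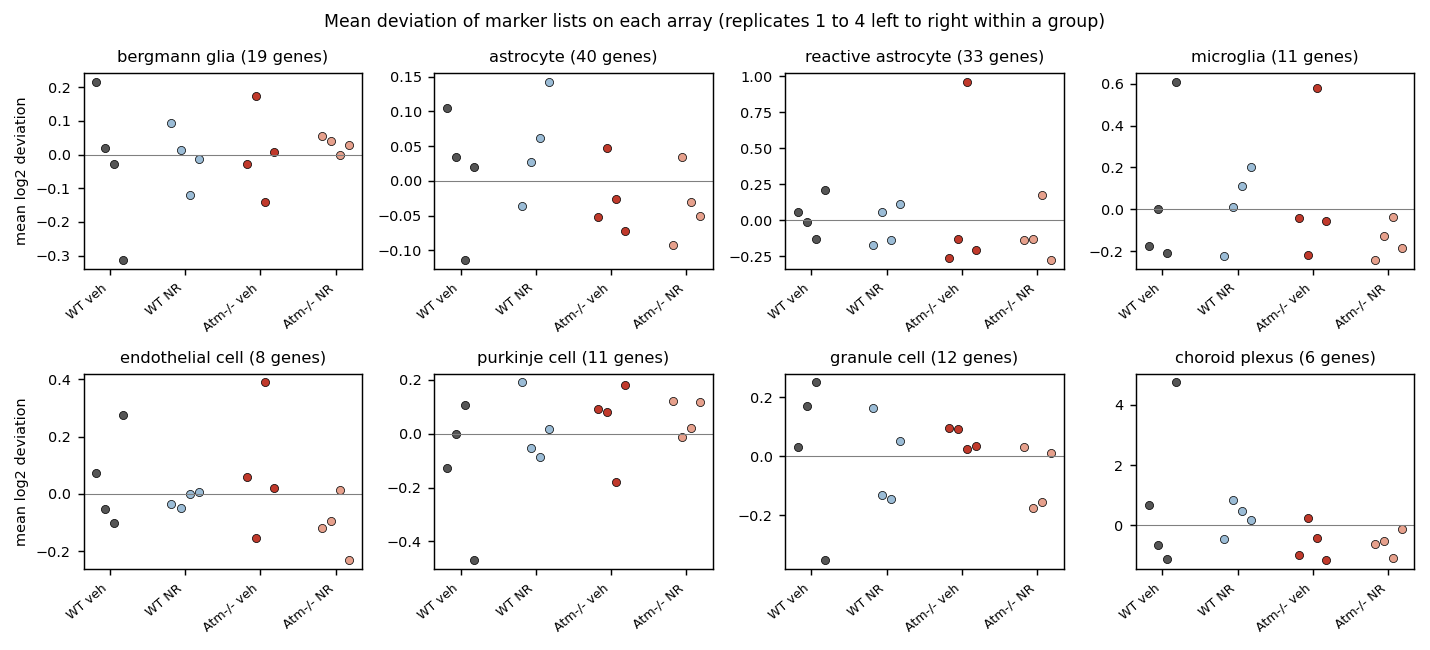
Mean deviation of a marker list's genes, each taken from its own average of the 16 arrays (y axis, log2, own scale in each panel) on the 4 arrays of each group (x axis; replicates 1 to 4 from left to right). The reactive astrocyte list reaches +0.96 on Atm-/- veh 3 and the choroid plexus list +4.75 on WT veh 4, where the Bergmann glia, Purkinje cell and granule cell lists are at their lowest.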

How the data were processed

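RNA of 16 mouse cerebella was measured on 1-colour arrays. The authors deposited Agilent Feature Extraction 12.0.3.1 output, in which the intensity of a spot is background-subtracted and not normalized between arrays, and a series-wide file of z-scores (score), made from log quantile normalized signals. Per the labels, groups hold 4 mice. Probes were named by accession through RefSeq genes (GRCm38.p6, names only), which named 32994 of 56605 probes. The arrays' design build differs. A probe counted as detected with 0.5 or more of its spots above background by the scanner's flag, and was kept if detected on all 4 arrays of a group. Log2 signals were quantile normalized, outlier spots set aside and the spots of a probe averaged, which left 37253 probes. Quantile normalization removes differences in overall brightness. Differences were tested with limma 3.58.1 (R 4.3.3; 4 group means, 12 residual degrees of freedom; Benjamini-Hochberg adjusted p under 0.05 over all probes), checked on simulated data. Correlation p-values used 100000 permutations, two-sided. Named were all members and, in each list, up to 4 genes of lowest p, besides genes for checks. Members and lists were chosen with earlier results of these data known. The number of arrays limits the precision. Alternatives were other scalings and filters, the deposited z-scores, arrays left out, the methods' t-test, a replicate block and a depth covariate. A further gene list is not reported here.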

Additional observations from a re-analysis of the deposited data

Results flagged for a closer look

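Within the 52 sets of 4 arrays (13 probes in 4 groups), 6 held a value far from the other 3 by Dixon's criterion, where chance gives about 1 in 20. Of these, 3 were on Atm-/- veh 3: *Fabp7* at 11.41, *Hopx* at 14.32 and the dimmer *Aqp4* probe at 11.46, each below the other Atm-/- veh arrays. On Atm-/- NR 4 the brighter *Aqp4* probe was high at 14.45 and the brighter *Sox9* probe low at 10.54, both in a group whose other 3 arrays were very close to each other. On WT veh 3 the dimmer *Sox9* probe was low at 8.28.

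The dimmer *Gfap* probe had a genotype difference of +0.61 (SE 0.27) in vehicle mice and of -0.14 (SE 0.27) in NR mice. Every Atm-/- veh array was above the WT veh mean and every Atm-/- NR array below the WT NR mean. All Atm-/- NR arrays (10.45 to 10.71) nevertheless lay within the WT NR range (10.40 to 11.25). At the brighter probe, Atm-/- veh 1 (12.37) was below the WT veh mean (12.63). For the dimmer probe, the test of the difference between these genotype differences gave -0.75 (SE 0.39, limma adjusted p = 0.84) and did not pass. Without the arrays that lack Y-linked signal the genotype difference was +0.32 in vehicle and +0.08 in NR mice, thus in the same direction, and the difference between them was -0.24 (limma adjusted p = 0.9996).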

How the results depend on the processing

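The number of the 13 member probes called was 0 in Atm-/- veh against WT veh, WT NR against WT veh, Atm-/- NR against WT NR and the difference between NR effects under every alternative run. In Atm-/- NR against Atm-/- veh it was 1 and became 3 with 75th-percentile scaling (*S100b*, the dimmer *Gfap* and the dimmer *Sox9* probe), 2 with the methods' t-test after Benjamini-Hochberg adjustment (*S100b* and the brighter *Aqp4* probe), 0 without the arrays that lack Y-linked signal, 0 with each array's share of detected probes as a covariate, and 0 to 1 with single arrays left out. The 1 called with all arrays was the dimmer *Gfap* probe, but without Atm-/- veh 3 it was the dimmer *Sox9* probe. By the unadjusted p of the methods' t-test alone (0.05 or less), 5 of the 13 probes and 10019 of all probes passed. The methods' criteria also include a z-ratio, a false discovery rate and an ANOVA, which were not applied here. The causes were not tested.

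For the 13 differences with an unadjusted p under 0.1, 358 values under 28 alternatives gave 0 changes of direction, 9 calls gained and 12 lost, the lost ones all of the dimmer *Gfap* probe (-1.55 to -0.25, the last on the scale of z-scores). The adjusted p of that probe ran from 0.024 to 0.14. The 13 differences were picked for a low p in the same arrays, and most alternatives reuse most of these arrays. Kept directions were therefore likely from the start and are no independent check. Among differences outside this set, signs did change when an array was left out, as for *Fabp7* and *Gdf10* in Atm-/- veh against WT veh.

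The replicate numbers share only a number: the correlation of same-numbered deviations ran from -0.33 to 0.37 over 24 pairs, over 0.1 in 6, and 2 of 16 arrays correlated best with their own number. With the replicate block, 3140 probes were called in Atm-/- NR against Atm-/- veh, among them 1 member, the dimmer *Sox9* probe (-0.37, limma adjusted p = 0.037), while the dimmer *Gfap* probe had -1.06 and an adjusted p of 0.060. The alternative without both Atm-/- veh 3 and WT veh 4 was chosen after seeing the data.

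Only 4 arrays a group, 1 slide for each genotype, 1 slide row for each treatment and 4 arrays against the sex label limit the comparisons. Changes at probes of 1 gene that disagree (*Aqp4*, *Sox9*) have no settled direction.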
